A study of Homo sapiens with 6 samples.

Results

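Mitosis genes are described here: 38 genes of the machinery that condenses, aligns, checks and separates chromosomes and then divides the cell. They were taken by gene name from a list of 38, were found among the 53712 gene names of the count table, and all 38 passed the low-count filter and were tested. They were measured in H9 cells, a widely used line of human embryonic stem cells, kept in the naive-state medium RSeT. One group received 2.5 µM UNC1999, which inhibits the H3K27 methyltransferases EZH2 and EZH1. The other received 2.5 µM UNC2400, a closely related compound with N-methyl groups that inhibits them only weakly. DZNep (10 nM) and TSA (5 nM) were present in both groups, and treatment began 24 h after passage and lasted 48 h. DZNep inhibits S-adenosylhomocysteine hydrolase, and TSA, or trichostatin A, inhibits histone deacetylases. There were 3 poly(A)-selected RNA-seq libraries per compound, and no group without DZNep and TSA, so the differences below are between the compounds on that shared background. H9 is 1 line. Nothing in the labels tells separate cultures from repeat preparations, so the p-values rest on a spread among libraries that may be technical.

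Entry into mitosis is driven by the kinase CDK1 bound to A- and B-type cyclins. CDK1 is held inactive by phosphorylation and released by CDC25 phosphatases. Kinesin motors and microtubule-binding proteins then build the spindle. Kinetochores on centromeric chromatin attach to it, and the spindle checkpoint holds back the anaphase-promoting complex (APC/C) until every chromosome is attached. The APC/C with its activator CDC20 then marks securin and cyclin B for destruction. Most of these genes are transcribed in G2 and M phase under the MuvB complex with B-MYB and FOXM1, and are repressed by the DREAM complex in resting cells. Pluripotent stem cells divide fast and carry high levels of these transcripts.

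Total counts were 33522942 to 34481593 in UNC1999 libraries and 29699441 to 42345448 in UNC2400 libraries. The 38 genes together took 0.587%, 0.556% and 0.564% of counts in UNC1999 replicates 1 to 3, and 0.618%, 0.639% and 0.653% in UNC2400 replicates 1 to 3. The groups did not overlap, at 0.569% ± 0.0161 in UNC1999 and 0.637% ± 0.0179 in UNC2400 (SD, n = 3 each). On the first principal component of all tested genes, UNC1999 replicate 1 had a score of 20.1 and the other UNC1999 libraries 39.3 and 41.4, against -35.2 to -31.6 for UNC2400. Pluripotency markers were present in every library: 11 of 11 were tested, and their summed level was 7957 to 9111 CPM in UNC1999 and 10736 to 10886 CPM in UNC2400. Of 12 fibroblast markers, 8 were tested, with a summed level of 214 to 226 CPM in UNC1999 and 315 to 344 CPM in UNC2400, most of it from COL1A2, THY1, COL1A1 and PDGFRA. Of the 8, COL1A1, COL1A2, THY1, PDGFRA and POSTN fell, PDGFRB and S100A4 rose, and TWIST2 did not pass. The other 4 were near 0: over all libraries of a group, COL3A1 had 14 counts in UNC1999 and 13 in UNC2400, DCN 4 and 1, FAP 2 and 2, and LUM 1 and 0. Both marker sums were lower in UNC1999, as was that of the mitosis genes, although single fibroblast markers went both ways. Their part in the results was not tested.

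The promoters are shown because the members are known as a co-regulated group and because their shared letters can be set beside how they moved. A RefSeq promoter window, from 250 bases before to 50 bases after the gene start (build GRCh38.p14), was found for 32 of the 38 genes. Both strands were searched for CCAAT, the letters bound by NF-Y, and for TTTGAA and TTCGAA, the letters of the cell cycle genes homology region bound by MuvB complexes. CCAAT occurred in 24 of 32 windows (75%), against 34.6% of all 35116 windows of this length. At least 2 copies occurred in 15 of 32 (46.9%), against 10.8%. TTTGAA or TTCGAA occurred in 23 of 32 (71.9%), against 16.4%. Windows with both kinds made up 59.4% of the members and 6.38% of all windows. A match is only a description of the letters in the window. The 5 windows below are those of a pair of genes that fell (TOP2A, MKI67), a pair that did not pass the test (CCNB2, PLK1) and 1 that rose (CENPA). They run 5′ to 3′ on the gene's strand, with CCAAT (or ATTGG on the other strand) and TTTGAA (or TTCAAA) in capitals. In MKI67 a TTTGAA and an ATTGG share letters. CCAAT and its reverse complement can share letters too.
TOP2A: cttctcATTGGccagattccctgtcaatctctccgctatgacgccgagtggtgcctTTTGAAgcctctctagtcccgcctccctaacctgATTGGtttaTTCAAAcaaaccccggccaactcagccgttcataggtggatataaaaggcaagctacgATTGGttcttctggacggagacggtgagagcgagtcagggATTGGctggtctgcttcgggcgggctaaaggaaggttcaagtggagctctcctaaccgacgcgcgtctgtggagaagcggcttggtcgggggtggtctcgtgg
MKI67: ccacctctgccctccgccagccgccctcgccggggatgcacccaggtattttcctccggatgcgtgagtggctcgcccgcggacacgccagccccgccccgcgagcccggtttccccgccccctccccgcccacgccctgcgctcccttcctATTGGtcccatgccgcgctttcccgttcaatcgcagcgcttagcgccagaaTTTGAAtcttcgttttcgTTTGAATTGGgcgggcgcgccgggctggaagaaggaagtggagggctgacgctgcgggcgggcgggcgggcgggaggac
CCNB2: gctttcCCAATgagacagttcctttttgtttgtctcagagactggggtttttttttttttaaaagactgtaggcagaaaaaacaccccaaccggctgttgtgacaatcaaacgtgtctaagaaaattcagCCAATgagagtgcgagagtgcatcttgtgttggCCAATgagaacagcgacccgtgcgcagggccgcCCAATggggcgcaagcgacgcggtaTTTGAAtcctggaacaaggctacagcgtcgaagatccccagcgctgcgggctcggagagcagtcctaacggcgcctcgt
PLK1: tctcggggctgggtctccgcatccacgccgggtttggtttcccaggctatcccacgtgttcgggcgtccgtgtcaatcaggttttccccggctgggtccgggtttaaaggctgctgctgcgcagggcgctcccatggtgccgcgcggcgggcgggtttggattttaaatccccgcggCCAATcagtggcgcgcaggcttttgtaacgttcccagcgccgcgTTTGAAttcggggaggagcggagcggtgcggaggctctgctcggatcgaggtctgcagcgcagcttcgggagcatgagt
CENPA: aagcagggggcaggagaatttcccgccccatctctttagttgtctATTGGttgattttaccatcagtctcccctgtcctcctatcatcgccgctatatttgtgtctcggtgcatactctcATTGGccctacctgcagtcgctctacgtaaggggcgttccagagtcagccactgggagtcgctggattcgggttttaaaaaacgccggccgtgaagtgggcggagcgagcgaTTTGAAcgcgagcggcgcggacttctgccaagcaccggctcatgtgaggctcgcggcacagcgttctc
The windows lie at chr17:40417847-40418146 on the minus strand for TOP2A, chr10:128126374-128126673 on the minus strand for MKI67, chr15:59104896-59105195 on the plus strand for CCNB2, chr16:23678639-23678938 on the plus strand for PLK1 and chr2:26785806-26786105 on the plus strand for CENPA. In CCNB2 the copies of CCAAT nearest the start begin 120, 87 and 54 bases upstream and TTTGAA 29 bases upstream. In PLK1, CCAAT begins 73 and TTTGAA 29 bases upstream. The same kinds of letters were thus present in genes that fell, rose or did not pass. TTTGAA or TTCGAA was found in 15 of the 17 matched genes that fell, 7 of the 13 that did not pass, and 1 of the pair that rose. CCAAT was found in 12 of 17, 11 of 13 and 1 of the pair.

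Of the 38 genes, 18 fell in UNC1999, 2 rose and 18 did not pass (edgeR quasi-likelihood test, adjusted p under 0.05). In either direction 20 of 38 members passed, against 52.7% of all tested genes. The genes that fell were mostly those of spindle microtubules and poles, kinetochores, the BUB kinases, cytokinesis and chromosome structure, with the motors KIF11 and KIF4A and the phosphatase gene CDC25C. CDK1, its cyclins, PLK1, the Aurora kinases, CDC20, UBE2C and PTTG1 did not pass. The share lower was 47.4% against 25.9% of all 17596 genes tested, and the share higher 5.26% against 26.8%. The members are well expressed: the lowest, CDC25C, averaged 22.2 CPM over the 6 libraries, and among the 7476 tested genes at or above that level 36.0% were lower and 29.9% higher. All UNC1999 libraries lay below all UNC2400 libraries for 21 members and above for 4, against 29.7% and 30.9% of tested genes. The median log2 fold change of the members was -0.12 and that of all tested genes 0.02, so directions are relative to the bulk of genes. No member changed by more than 2-fold. Members that fell were lower by 8.97% to 37.4%. In bulk RNA, fewer cells in mitosis and less RNA per cell cannot be told apart.

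**Figure D1:**
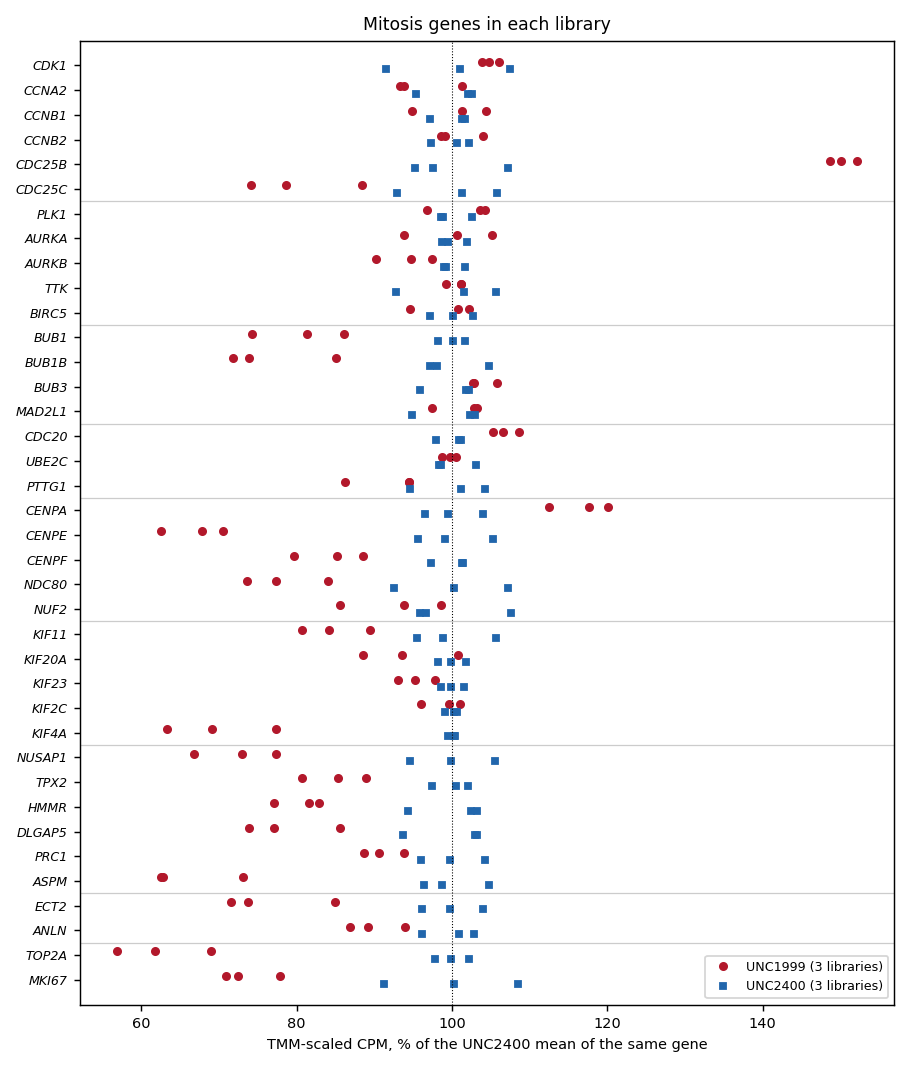
Each row is 1 mitosis gene, grouped by role, and the x axis is its TMM-scaled CPM as a percentage of the mean of the 3 UNC2400 libraries. Red circles are UNC1999 libraries and blue squares UNC2400 libraries. The UNC1999 circles lie left of all UNC2400 squares for 21 genes, TOP2A and ASPM among them, and right of them for 4, of which CDC25B is farthest.

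Of the 9 roles, the 2 chromosome structure and surface genes had the median log2 fold change farthest from 0, at -0.56. Of the 38 members TOP2A changed most, while MKI67 changed less than ASPM, CDC25B and CENPE of other roles. TOP2A encodes topoisomerase II alpha, which untangles sister DNA. It had 454, 375 and 407 CPM in UNC1999 replicates 1 to 3, against 644, 657 and 673 CPM in UNC2400 replicates 1 to 3. The groups were far apart, and all UNC1999 libraries were lower. Its log2 fold change was -0.68 ± 0.06 (SE; adjusted p = 2.86e-07), or 37.4% lower. MKI67 encodes Ki-67, the coat of mitotic chromosomes and the usual marker of dividing cells. It had 308, 280 and 286 CPM in UNC1999 libraries, against 429, 360 and 396 CPM in UNC2400 libraries. Here too every UNC1999 library was lower, and the log2 fold change was -0.44 ± 0.06 (SE; adjusted p = 2.16e-05).

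CDK1 and its cyclins did not pass. CDK1 had 105, 105 and 107 CPM in UNC1999 libraries, against 92.1, 108 and 102 CPM in UNC2400 libraries, with a 95% interval of the log2 fold change of -0.05 to 0.19. CCNB1, the main mitotic cyclin, had 366, 333 and 355 CPM in UNC1999 libraries, against 341, 357 and 355 CPM in UNC2400 libraries (interval -0.11 to 0.12). The groups overlapped for both. CCNB2, the other B-type cyclin, had 118, 113 and 112 CPM in UNC1999 libraries and 111, 114 and 116 CPM in UNC2400 libraries (interval -0.10 to 0.11). CCNA2, the cyclin A of S and G2 phase, had 240, 222 and 221 CPM in UNC1999 libraries and 226, 242 and 243 CPM in UNC2400 libraries (interval -0.17 to 0.06). These intervals leave room for changes of up to 0.19 on the log2 scale, so they bound the difference and do not show equality. The CDC25 phosphatases that switch CDK1 on did pass. CDC25B had 59.7, 60.5 and 59.1 CPM in UNC1999 libraries, against 38.8, 37.9 and 42.6 CPM in UNC2400 libraries. It rose by 0.59 ± 0.06 on the log2 scale (SE; adjusted p = 2.81e-07), the largest rise among the 38 genes. CDC25C had 21.7, 18.2 and 19.3 CPM in UNC1999 libraries, against 22.8, 24.9 and 26.0 CPM in UNC2400 libraries. It fell by 0.32 ± 0.08 (log2, SE; adjusted p = 0.00253).

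**Figure D2:**
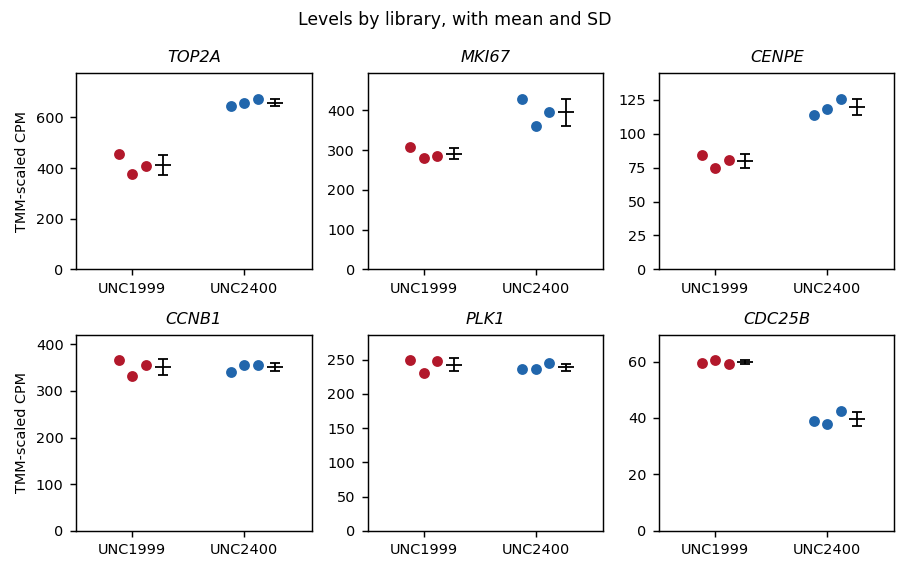
Points are single libraries in TMM-scaled CPM, with the mean and SD (n = 3) beside them, UNC1999 left and UNC2400 right in each panel. TOP2A, MKI67 and CENPE lie lower in all 3 UNC1999 libraries, CCNB1 and PLK1 overlap, and CDC25B lies higher.

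The kinase genes PLK1, AURKA, AURKB and TTK and the passenger gene BIRC5 also did not pass in the fit without the length and GC offsets described below. PLK1, which drives centrosome maturation and mitotic entry, had 249, 231 and 248 CPM in UNC1999 libraries and 236, 236 and 245 CPM in UNC2400 libraries (log2 interval -0.09 to 0.13). AURKA, the spindle pole kinase, had 129, 115 and 123 CPM in UNC1999 libraries and 121, 122 and 125 CPM in UNC2400 libraries (interval -0.11 to 0.11). Both sets overlapped. AURKB, the kinase of the chromosomal passenger complex, had 115, 107 and 112 CPM in UNC1999 libraries, all below the 118, 117 and 121 CPM of UNC2400 libraries. Its log2 fold change was -0.09 ± 0.05 (SE; adjusted p = 0.151), and without UNC1999 replicate 1 it was -0.13 (adjusted p = 0.0256). TTK, a checkpoint kinase, and BIRC5, the passenger subunit survivin, overlapped between the groups, with intervals of -0.11 to 0.12 and -0.12 to 0.10.

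The spindle checkpoint genes divided into a pair that fell and a pair that did not pass. BUB1B encodes BUBR1, which sequesters CDC20. It had 129, 109 and 112 CPM in UNC1999 libraries, against 149, 147 and 159 CPM in UNC2400 libraries. It fell by 0.38 ± 0.06 (log2, SE; adjusted p = 7.39e-05). The kinase gene BUB1 fell by 0.31 ± 0.06 (log2, SE; adjusted p = 0.000207), at 224 ± 16.6 CPM in UNC1999 and 278 ± 4.67 CPM in UNC2400 (SD, n = 3 each). MAD2L1, whose product binds CDC20, had 122, 116 and 122 CPM in UNC1999 libraries and 112, 121 and 122 CPM in UNC2400 libraries, which overlapped (interval -0.09 to 0.13). BUB3, the partner of both BUB proteins, had a log2 interval of -0.05 to 0.16.

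None of the 3 members that act with the APC/C passed. UBE2C, the ubiquitin-conjugating enzyme of the APC/C, had 143, 140 and 142 CPM in UNC1999 libraries and 140, 146 and 140 CPM in UNC2400 libraries (log2 interval -0.11 to 0.10). PTTG1, which encodes securin, the guard of separase, had 97.7, 89.1 and 97.7 CPM in UNC1999 libraries and 97.7, 108 and 105 CPM in UNC2400 libraries. The UNC1999 values of PTTG1 lay below all UNC2400 values, but only just (log2 fold change -0.13 ± 0.06, SE; adjusted p = 0.0663). It passed as lower without UNC1999 replicate 1 (adjusted p = 0.009) and without UNC2400 replicate 1 (adjusted p = 0.0397). CDC20, the APC/C activator, lay higher in every UNC1999 library, at 252 ± 3.86 CPM against 236 ± 4.24 CPM in UNC2400 (SD, n = 3 each). Its adjusted p was 0.111, and 0.0373 with upper-quartile factors. Close copies of UBE2C and PTTG1 carried few reads in this table: PTTG2 and PTTG3P had 0 counts in all libraries. CDC20P1 had 555 counts over the UNC1999 libraries and 536 over the UNC2400 libraries, beside 26076 and 23778 for CDC20.

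At the centromere, CENPA moved against its neighbours. CENPA, the histone H3 variant that marks centromeres, rose by 0.22 ± 0.06 (log2, SE; adjusted p = 0.0062). It was at 28.7 ± 0.961 CPM in UNC1999, against 24.6 ± 0.921 CPM in UNC2400 (SD, n = 3 each), and every UNC1999 library was higher. The kinetochore motor CENPE fell, with 84.1, 74.6 and 80.8 CPM in UNC1999 libraries against 114, 118 and 126 CPM in UNC2400 libraries (log2 fold change -0.58 ± 0.06, SE; adjusted p = 3.62e-07). NDC80, the microtubule-binding subunit of the outer kinetochore, fell by 0.35 ± 0.06, and CENPF, a large protein of the kinetochore corona, by 0.24 ± 0.05 (log2, SE). NUF2, the partner of NDC80 in the same complex, had 41.0, 35.6 and 39.0 CPM in UNC1999 libraries and 39.9, 44.8 and 40.2 CPM in UNC2400 libraries. Those values overlapped (log2 interval -0.25 to 0.02), and without UNC1999 replicate 1 NUF2 passed as lower (adjusted p = 0.0112). Whether NDC80 and NUF2 differed from each other in response was not tested.

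Among the motors, KIF4A and KIF11 fell. KIF4A, a chromokinesin of the chromosome arms and the spindle midzone, had 72.4, 59.3 and 64.8 CPM in UNC1999 libraries, against 93.2, 94.0 and 93.9 CPM in UNC2400 libraries. It fell by 0.52 ± 0.06 (log2, SE; adjusted p = 3.19e-06). Its intronless copy KIF4B had 12 counts over the UNC1999 libraries and 15 over the UNC2400 libraries, so few KIF4A reads were assigned there. KIF11, the motor that pushes spindle poles apart, fell by 0.24 ± 0.06 (log2, SE; adjusted p = 0.0017). KIF2C, a microtubule depolymerase of the centromere, had 105, 99.3 and 103 CPM in UNC1999 libraries and 104, 104 and 103 CPM in UNC2400 libraries, which overlapped (log2 interval -0.12 to 0.08). The central spindle motors KIF20A and KIF23 did not pass either, with intervals of -0.20 to 0.03 and -0.17 to 0.03. KIF20A passed as lower without UNC1999 replicate 1 (adjusted p = 0.00977).

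All 6 spindle-associated proteins and both cytokinesis genes fell. ASPM, a protein of spindle poles, had 139, 119 and 119 CPM in UNC1999 libraries, against 187, 183 and 199 CPM in UNC2400 libraries. Its log2 fold change was -0.60 ± 0.06 (SE; adjusted p = 7.06e-07), or 33.8% lower. NUSAP1, which bundles spindle microtubules, fell by 0.47 ± 0.06, DLGAP5, which stabilises kinetochore fibres, by 0.34 ± 0.06, and HMMR, a spindle assembly factor, by 0.31 ± 0.05 (log2, SE). TPX2, the activator of AURKA at the spindle, was at 253 ± 12.2 CPM in UNC1999 and 298 ± 6.91 CPM in UNC2400 (SD, n = 3 each), and fell by 0.23 ± 0.05 (log2, SE; adjusted p = 0.00126). PRC1, the cross-linker of midzone microtubules, had the smallest fall. It had 75.6, 73.9 and 78.3 CPM in UNC1999 libraries, against 80.1, 83.2 and 86.9 CPM in UNC2400 libraries (adjusted p = 0.034). Its call was lost without UNC1999 replicate 2, UNC2400 replicate 2 or UNC2400 replicate 3 (adjusted p = 0.0694, 0.0831 and 0.173). ECT2, the RhoA activator of the cleavage furrow, had 207, 174 and 180 CPM in UNC1999 libraries, against 235, 243 and 254 CPM in UNC2400 libraries. It fell by 0.38 ± 0.06 (log2, SE; adjusted p = 7.28e-05). ANLN, the furrow scaffold anillin, had 152, 140 and 144 CPM in UNC1999 libraries, against 155, 163 and 166 CPM in UNC2400 libraries (adjusted p = 0.02). Its call was lost without UNC1999 replicate 3, UNC2400 replicate 2 or UNC2400 replicate 3 (adjusted p = 0.0582, 0.0722 and 0.104).

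**Figure D3:**
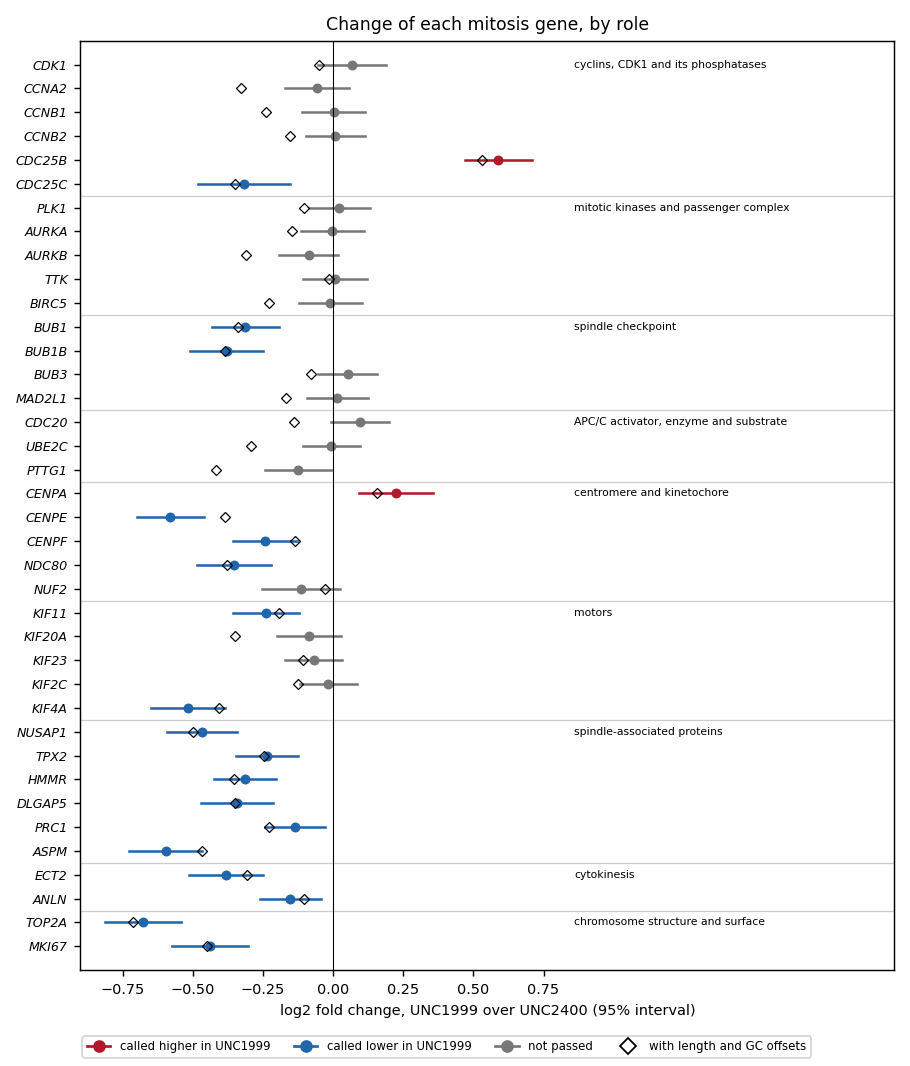
Filled circles are log2 fold changes (UNC1999 over UNC2400) with their 95% intervals, one row per gene, grouped by role and coloured by the edgeR call. Open diamonds are the fold changes with offsets for gene length and GC content. The 6 spindle-associated genes lie left of 0, as do both cytokinesis genes. The cyclins and the kinase genes PLK1, AURKA and AURKB lie near 0 without the offsets and left of it with them. TTK lies near 0 in both.

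The size of the fall differed between UNC1999 libraries. Of the 18 genes that fell, 17 had their highest UNC1999 value in replicate 1 and 18 their lowest in replicate 2. This order was not particular to them. Most members that did not pass were also highest in replicate 1 and lowest in replicate 2. They were CCNB1, PLK1, AURKA, AURKB, TTK, BIRC5, BUB3, MAD2L1, CDC20, UBE2C, NUF2, KIF20A and KIF2C. CCNA2, CCNB2 and KIF23, which did not pass either, were highest in replicate 1 and lowest in replicate 3. CDK1 and PTTG1 were highest in replicate 3, PTTG1 by very little, and lowest in replicate 2. How often the order occurs over all genes was not counted. Replicate 1 was also the UNC1999 library nearest to UNC2400 on the first principal component. Without it, 22 members fell and 2 rose, and the added genes were AURKB, PTTG1, NUF2 and KIF20A. Calls over all genes were also more frequent in that fit, at 28.6% lower and 27.4% higher. These shares too are over genes of all levels, not those at the members' level only. The cause of this order was not tested.

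Per length, the members differed widely in level. In UNC2400, CCNB1 was highest at 137 RPKM (reads per kilobase of joined exon, scaled to library size), followed by CDC20 at 116, UBE2C at 110 and TOP2A at 102 RPKM. CDC25B and CDC25C were lowest at 9.22 and 7.36 RPKM. The first 3 of these were among the genes that did not pass.

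The genes that fell had a median genomic span of 56.6 kb and those that did not pass one of 12.1 kb, beside 31.2 kb over all tested genes with a known span. TOP2A, PRC1 and MKI67 fell with spans just under that of the median tested gene. The spans, taken from GENCODE release 29 as gene properties, ran from 4.25 kb (CDC20) to 131 kb (KIF4A). TOP2A, at 29.4 kb, had the shortest span of any member that fell. Of the 16 members shorter than that, 15 did not pass and CDC25B rose. Of the 22 at or above it, 18 fell, CENPA rose, and TTK, NUF2 and KIF23 did not pass. This dividing length was chosen after the values were seen. Longer genes were lower in the whole table as well: among genes at or above the level of the lowest member, 18.5% of those shorter than TOP2A and 50.2% of the others were lower. In fixed classes, 14 of the 18 members of 30 to 100 kb fell, against 41.1% of the 2562 genes of that class at this level, and their median log2 fold changes were -0.31 and -0.07. Below 30 kb, 3 of 19 members fell, against 18.7%, and 1 rose, against 45.3%, with medians of -0.0057 and 0.10. Those 3 (TOP2A, MKI67 and PRC1) all span between 29.4 and 29.7 kb, at the edge of the class. The 1 member over 100 kb, KIF4A, fell, in a class where 68.1% of genes at this level were lower and 8.33% higher. Across the 38 members, the log2 fold change and log2 span had a Pearson r of -0.56 and a Spearman rho of -0.65. Over the 14835 tested genes with a span they were -0.35 and -0.39. These are descriptions across genes that share the same libraries. GC content of the transcripts had a Pearson r of 0.53 with the fold change over the members and 0.07 over all tested genes.

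**Figure D4:**
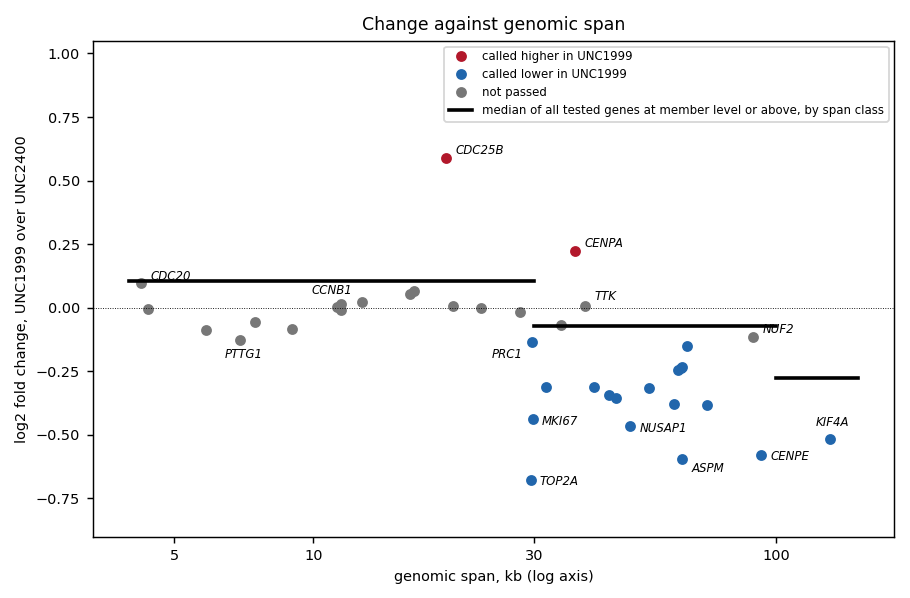
Points are the 38 mitosis genes by genomic span (log axis) and log2 fold change (UNC1999 over UNC2400), coloured by call. Black lines are the medians of all tested genes at or above the lowest member's level, at 0.10 below 30 kb, -0.07 from 30 to 100 kb and -0.28 above. Most members lie below the line of their span class, with CDC25B and CENPA farthest above it.

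With offsets that take out the smooth trend of each library with span, exon length and GC content over the genes with those properties, 26 members fell and 2 rose, against 24.5% of all genes lower and 23.8% higher in that fit. Those shares are over genes of all levels, and shares at the members' level were not counted in that fit. The median of the members was then -0.24 and that of all genes 0.000728. Of the 18 genes that fell before, 16 still did; CENPF (log2 fold change -0.14, adjusted p = 0.0671) and ANLN (-0.10, adjusted p = 0.118) did not. The 10 added genes were CCNA2, CCNB1, CCNB2, AURKA, AURKB, BIRC5, MAD2L1, UBE2C, PTTG1 and KIF20A. CCNB1, CCNB2 and MAD2L1 turned from just above 0 to log2 fold changes of -0.24, -0.15 and -0.17. CDK1 (-0.05, adjusted p = 0.492) and PLK1 (-0.10, adjusted p = 0.17) still did not pass. CDC20 turned to -0.14 (adjusted p = 0.0609), also not past the threshold. That the cyclins, the Aurora kinases, UBE2C and PTTG1 did not pass therefore holds for the fit without the offsets. CDC25B and CENPA rose in both. In all 15 alternatives run, 15 members fell: CDC25C, BUB1, BUB1B, CENPE, NDC80, KIF11, KIF4A, NUSAP1, TPX2, HMMR, DLGAP5, ASPM, ECT2, TOP2A and MKI67.

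Other mitosis genes, in 9 lists, moved in both directions, more often down. Of 169 tested, 74 fell, 26 rose and 69 did not pass, or 43.8% lower and 15.4% higher, with a median log2 fold change of -0.07. The shares over all tested genes were 25.9% lower and 26.8% higher, and at or above the level of the lowest member 36.0% and 29.9%. None of these lists was tested against them. The spans of these genes are not given here. At that level 18.7% of genes under 30 kb were lower, 41.1% of those of 30 to 100 kb and 68.1% of longer ones. With the length and GC offsets described above, 76 of the 169 fell and 21 rose, against 24.5% and 23.8% of all genes. Cohesin and condensin genes, which hold sister chromatids together and compact them, fell in 15 of 23 and rose in 1. The condensin II subunit genes NCAPD3 and NCAPG2 fell by 0.70 ± 0.06 and 0.67 ± 0.06, and the separase gene ESPL1 by 0.58 ± 0.06, while CDCA5 (sororin) rose by 0.27 ± 0.05 (log2, SE). Other motors and spindle proteins fell in 18 of 29 and rose in 2. KIF20B, TACC3 and CLASP1 fell by 0.41 ± 0.05, 0.38 ± 0.06 and 0.46 ± 0.06, and HAUS8, a subunit of the augmin complex, rose by 0.34 ± 0.07 (log2, SE). With the offsets CLASP1 did not pass (-0.08, adjusted p = 0.206). The tubulin gene TUBA1C rose by 0.19 ± 0.05, a value that is uncertain because of near-identical family members, and it did not pass without UNC1999 replicate 3 (adjusted p = 0.0998). Cytokinesis genes fell in 6 of 11 and rose in 2. The non-muscle myosin genes MYH10 and MYH9 fell by 0.94 ± 0.08 and 0.89 ± 0.08, and the formin gene DIAPH3 by 0.81 ± 0.08 (log2, SE). ARHGEF2 rose by 0.24 ± 0.05, and RHOA, the GTPase of the contractile ring, by 0.20 ± 0.05 (adjusted p = 0.076 without UNC1999 replicate 3).

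APC/C subunits and inhibitors fell in 9 of 18 (50%) and rose in 2 (11.1%). Over all tested genes 25.9% fell and 26.8% rose, and at the members' level 36.0% and 29.9%, a difference that was not tested. ANAPC5, ANAPC4 and CDC16 fell by 0.69 ± 0.06, 0.64 ± 0.06 and 0.48 ± 0.05 (log2, SE). ANAPC13 and CDC23 rose by 0.35 ± 0.05 and 0.24 ± 0.05 (log2, SE), and with the offsets ANAPC13 did not pass (adjusted p = 0.177). CDC23 did not pass with the offsets and the replicate block together (adjusted p = 0.0517). Among inner and outer kinetochore genes 13 of 37 (35.1%) fell, near the 36.0% of genes at the members' level, and 6 rose. KNTC1, a subunit of the RZZ complex, fell by 0.90 ± 0.08, while the outer kinetochore genes SKA1 and MIS12 rose by 0.75 ± 0.08 and 0.52 ± 0.06 (log2, SE). CENPB rose by 0.30 ± 0.06, and with the offsets it did not pass (adjusted p = 0.108). Of 9 spindle checkpoint and passenger genes 3 (33.3%) fell and 3 (33.3%) rose, near the 36.0% and 29.9% over genes at the members' level. MAD1L1 and TPR fell by 0.81 ± 0.09 and 0.48 ± 0.06, and the shugoshin gene SGOL1 rose by 0.31 ± 0.06. MAD2L1BP rose by 0.30 ± 0.06 (adjusted p = 0.218 with the offsets). GSG2, the gene of the kinase haspin, rose by 0.69 ± 0.08, a value that is uncertain because it lies within another gene. In the list named for centrosome duplication, which also holds genes with other roles, 4 of 11 (36.4%) fell and 3 (27.3%) rose. Both were near the shares over genes at the members' level. PCNT, CEP192 and CDK5RAP2 fell by 0.82 ± 0.07, 0.61 ± 0.08 and 0.54 ± 0.07, and NEDD1, CEP55 and PLK4 rose by 0.32 ± 0.07, 0.29 ± 0.06 and 0.23 ± 0.05 (log2, SE; PLK4 adjusted p = 0.139 with the offsets).

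Of 15 genes that restrain or tune CDK1, 7 (46.7%) rose and 3 (20%) fell, beside 26.8% and 25.9% of all tested genes. At or above the level of the lowest member 29.9% rose and 36.0% fell, and below 30 kb at that level 45.3% and 18.7%. The spans of these 15 genes are not given here, and no difference from those shares was tested. CDKN1A, the CDK inhibitor p21, was at 24.2 ± 6.27 CPM in UNC1999 and 7.61 ± 0.97 CPM in UNC2400 (SD, n = 3 each), and rose by 1.66 ± 0.15 (log2, SE; adjusted p = 1.88e-07). WEE1, the kinase that inhibits CDK1, was at 153 ± 9.06 CPM in UNC1999 and 115 ± 2.43 CPM in UNC2400 (SD, n = 3 each), and rose by 0.41 ± 0.05 (log2, SE). The inhibitor gene CDKN1B rose by 0.37 ± 0.05, and with the offsets it did not pass (adjusted p = 0.251). CDKN3, a phosphatase acting on CDKs, fell by 0.31 ± 0.06 (log2, SE). PKMYT1, another inhibitory kinase of CDK1, fell by 0.19 ± 0.06, and did not pass without UNC1999 replicate 3 or UNC2400 replicate 1 (adjusted p = 0.0563 and 0.0664). CDC25A, the third CDC25 gene, was close to the threshold (log2 fold change -0.12, adjusted p = 0.0472) and lost its call in 7 alternatives, among them those without UNC1999 replicate 2 or 3 and without each UNC2400 library (adjusted p = 0.0557 to 0.164).

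The transcription regulators of mitosis genes mostly did not pass: 3 of 16 (18.8%) fell and none rose by edgeR. Over all tested genes 25.9% fell and 26.8% rose, and at the members' level 36.0% and 29.9%, a difference that was not tested. At an unadjusted p under 0.05 the count of regulators higher was also 0, as it was with DESeq2 and limma-voom. MYBL2, which encodes B-MYB, was at 244 ± 20.7 CPM in UNC1999 and 297 ± 1.87 CPM in UNC2400 (SD, n = 3 each), and fell by 0.29 ± 0.06 (log2, SE; adjusted p = 0.000595). FOXM1 was at 146 ± 6.82 CPM in UNC1999 and 160 ± 6.06 CPM in UNC2400 (SD, n = 3 each), a difference of -0.13 ± 0.05 (log2, SE; adjusted p = 0.0536). It passed as lower in 7 alternatives, among them the fits without UNC1999 replicate 1 (adjusted p = 0.00604) and without UNC2400 replicate 1 (adjusted p = 0.0489). TFDP2 and RBL1 fell by 0.68 ± 0.06 and 0.31 ± 0.06 (log2, SE). RBL1 encodes the pocket protein p107, which binds MuvB proteins in the DREAM complex.

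**Figure D5:**
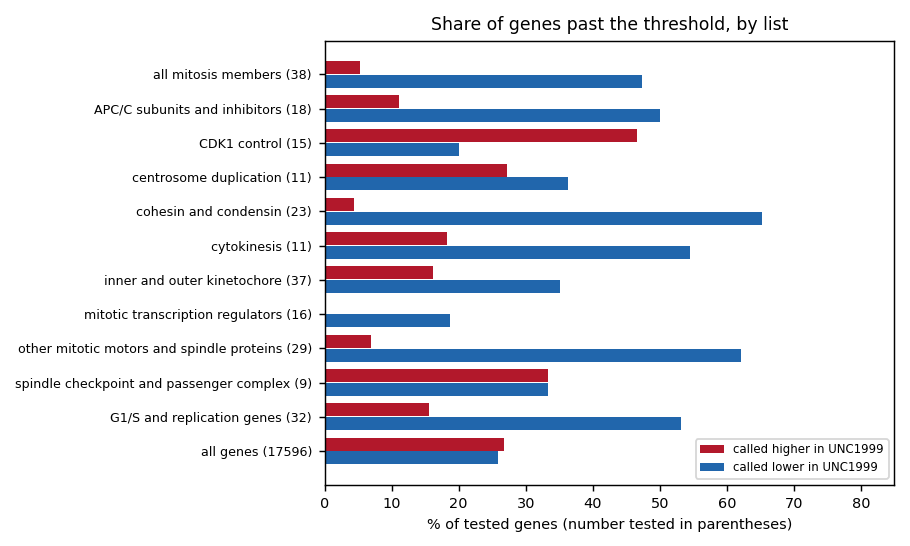
Bars give the share of tested genes called higher (red, upper) and lower (blue, lower) in UNC1999 by edgeR, for the 38 mitosis genes, 9 further mitosis lists, G1/S and replication genes and all genes. The mitosis members stand at 5.26% higher and 47.4% lower, and all genes at 26.8% higher and 25.9% lower.

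Of 32 genes of the G1/S transition and of replication, 17 (53.1%) fell and 5 (15.6%) rose, with a median log2 fold change of -0.19. Over all tested genes 25.9% fell and 26.8% rose, and at or above the level of the lowest member 36.0% and 29.9%. Among the mitosis members 47.4% fell and 5.26% rose. LIG1, POLA1 and POLE, which ligate and copy DNA, fell by 0.98 ± 0.08, 0.94 ± 0.08 and 0.84 ± 0.07, and CDT1 and GINS3 rose by 0.35 ± 0.05 and 0.39 ± 0.06 (log2, SE). FEN1 rose by 0.17 ± 0.05, and did not pass with the offsets (log2 fold change -0.10, adjusted p = 0.177) or without UNC1999 replicate 3 or UNC2400 replicate 1 (adjusted p = 0.0947 and 0.0837). Whether the mitosis and replication genes differed from each other was not tested.

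In the authors' deposited table of log2 fold changes, all 38 members were listed, 18 lower, 2 higher and 18 not past an adjusted p of 0.05, against 22.7% lower and 21.3% higher over its 20901 genes. TOP2A had a log2 fold change of -0.70, ASPM of -0.62, CENPE of -0.60 and CDC25B of 0.57 in the authors' deposited table. The sign there was that of the edgeR fit for 34 of 38 genes.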

How the data were processed

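RNA was sequenced from 3 UNC1999 and 3 UNC2400 libraries, grouped and numbered by the sample titles. The authors deposited whole-number counts per gene name, without normalization; they are marked as having duplicates removed, and whether that means reads or names is not stated. Per the submitters' processing notes, build hg19 was used, with Subread 1.5.0, featureCounts, TopHat2 2.0.13 and Trim Galore 0.4.0, whose roles are not given. Which annotation and strand setting were used, and what became of multiply matching reads, is not given in the sources used here. A further table deposited by the authors gives log2 fold changes with adjusted p-values, in columns named as limma names them, per the file headers. Their deposited batch-corrected values were not used.

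The default low-count filter of edgeR 4.0.16 (R 4.3.3) kept 17596 genes, which were tested together by the two-sided quasi-likelihood F test with TMM factors and the compound as the only term. P-values were adjusted over all of them by Benjamini-Hochberg, and 0.05 was the threshold. Differences are UNC1999 minus UNC2400 on the log2 scale, with SE or 95% intervals. CPM are TMM-scaled. The code was tested on simulated data. Of the gene names, 26 had been turned into calendar dates, and SEPT7 and SEPT9 of the cytokinesis list were not found by name. Alternatives were RLE and upper-quartile factors, DESeq2 1.42.0, limma-voom (limma 3.58.1), no filter, a filter of 1 CPM in 3 libraries, a replicate block, smooth length and GC offsets, both together, and leaving out each library. GENCODE release 29 supplied span, exon length and GC content, matched by name for 84.3% of tested genes, and the others were left without a correction. It is of another build than the counts, so these served as gene properties only. RPKM used the joined length of all exons of a gene. Counts have no molecular identifiers, so depth gives counting precision only.

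The members and lists were chosen with earlier results of these data known. Values in every library are given for TOP2A, MKI67, CDK1, the cyclins, PLK1, AURKA and AURKB, and for the members with the smallest and largest p in each of 9 roles; those of CDC25C were added after they were seen. Of each further list, up to 3 genes with the smallest p and up to 3 called against the majority were named, with FOXM1, MYBL2 and CDKN1A in any case. A gene that this rule would name is not reported here. The fibroblast and pluripotency markers are given as sums, with the calls or counts of the fibroblast markers.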

Additional observations from a re-analysis of the deposited data

How the results depend on the processing

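The count of members lower in UNC1999 was 18, and 16 to 26 in the alternatives; that of members higher was 2, or 3 with upper-quartile factors, which added CDC20. No member changed its call with RLE factors, DESeq2, limma-voom, the stricter filter or the replicate block. With no low-count filter PRC1 was lost (adjusted p = 0.0534). With the length and GC offsets, CCNB1, CCNB2 and MAD2L1 turned to log2 fold changes of -0.24, -0.15 and -0.17, called as lower, and with the replicate block added to -0.24, -0.16 and -0.17; the offsets take out a trend with gene length by construction. G1/S and replication genes called higher numbered 5, and 3 with the offsets, alone or with the replicate block; leaving out each library gave 2 to 5.

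The replicate numbers were not taken as pairs: libraries with the same number had correlations of their deviations from the group mean of 0.02, 0.08 and 0.12, and 5 of 6 libraries correlated best with their own number. With the replicate block, 4867 genes were higher and 4695 lower, against 4714 and 4554 without it, with 18 members lower and 2 higher in both.

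With 3 libraries per group, 95% intervals of the members that did not pass reached from -0.25 to 0.20 on the log2 scale. How small a difference passed depended on the gene: PRC1 passed at -0.14. Library scaling put the median log2 fold change over all genes at 0.02 (TMM), 0.007 (RLE) or 0.03 (upper-quartile), so a change common to most transcripts is not measured.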
